A study of Mus musculus with 8 samples.

Results

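The genes described here are the 8 OAS and MX family members Oas1a, Oas1g, Oas2, Oas3, Oasl1, Oasl2, Mx1 and Mx2, chosen by name from a table of 12823 rows. All 8 had a row, and all 8 passed the filter on low counts, which 12494 rows passed. They were measured by RNA-seq in 4 libraries of newly generated AML cells (new AML) and 4 libraries of aggressive AML cells. In both groups the cells were mouse bone marrow progenitors made leukemic with MLL-AF9, a fusion of KMT2A and MLLT3, delivered by a retrovirus that also carries GFP, and they were grown in C57BL/6 mice and sorted from bone marrow by their GFP. New AML is described as cells of the first, sublethally irradiated recipients. Aggressive AML is described as derived from the same newly generated cells by 5 serial transplantations in non-irradiated mice. Whether the aggressive AML libraries trace back to a single passaged leukemia or to several is not stated. The mice were male and, as stated for all experiments of the study, between 8 and 12 weeks old. The comparison asked what changed in the leukemia cells during passage through mice with intact immunity.

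OAS enzymes bind double-stranded RNA, a by-product of virus replication, and then join ATP into short 2′-5′-linked oligoadenylates (2-5A). These messenger molecules set off a response that halts protein synthesis in the cell. MX proteins are large GTPases related to dynamin that assemble around viral nucleoprotein complexes and block them. Cells keep both families low at rest and raise them when type I interferon, through its receptor IFNAR, brings STAT2 and IRF9, among other factors, to interferon-stimulated response elements (ISRE) in their promoters. Laboratory strains such as C57BL/6 carry defective Mx1 and Mx2 genes, and RefSeq lists both as transcribed pseudogenes of the reference strain, so their values here are levels of RNA only.

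The leukemia cells had the markers of their label, with all 10 genes of a list of myeloid leukemia genes expressed. Levels are in CPM, counts scaled by the library total and a TMM factor. Hoxa9, for example, was at 301 ± 8.67 CPM in new AML against 322 ± 25.3 CPM in aggressive AML (SD, n = 4). Of these 10 genes, edgeR called 4 lower in aggressive AML, against 10.2% of all tested genes. Their log2 fold changes were -1.70 for Csf1r, -0.61 for Itgam, -0.59 for Hoxa10 and -0.25 for Spi1. Kit and Meis1 were called higher at 0.65 and 0.45, against 8.15% of all tested genes. Total counts were 7805544 to 9697777 per library, so that 3 counts stood for 0.309 to 0.384 CPM. Counts of 4 Y-linked genes together reached 2315 to 2574 per new AML library and were 0 in all 4 aggressive AML libraries. Origin and passage of the cells cannot be told apart in any difference between the groups. The 4 libraries of a group are labelled as biological replicates and described as from male mice, and p-values measure the spread between these libraries.

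All 8 members were lower in aggressive AML, with fold changes between 1.80 and 5.75 and adjusted p-values from 1.39e-05 to 0.00863 (edgeR, Benjamini-Hochberg over all genes tested). Of all tested genes, 10.2% were called lower, 8.15% higher and 18.4% in either direction. Oas2 fell the most and Oas1a the least. The median log2 fold change was -1.53 over the members and 0.00 over all genes tested. The fall was called and at least 2-fold in 7 members, against 2.74% of the tested genes. In 6 members all new AML libraries lay above all aggressive AML libraries, against 12.0% of the tested genes. In bulk RNA, fewer cells that express a gene and less RNA of it per cell cannot be told apart.

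**Figure D1:**
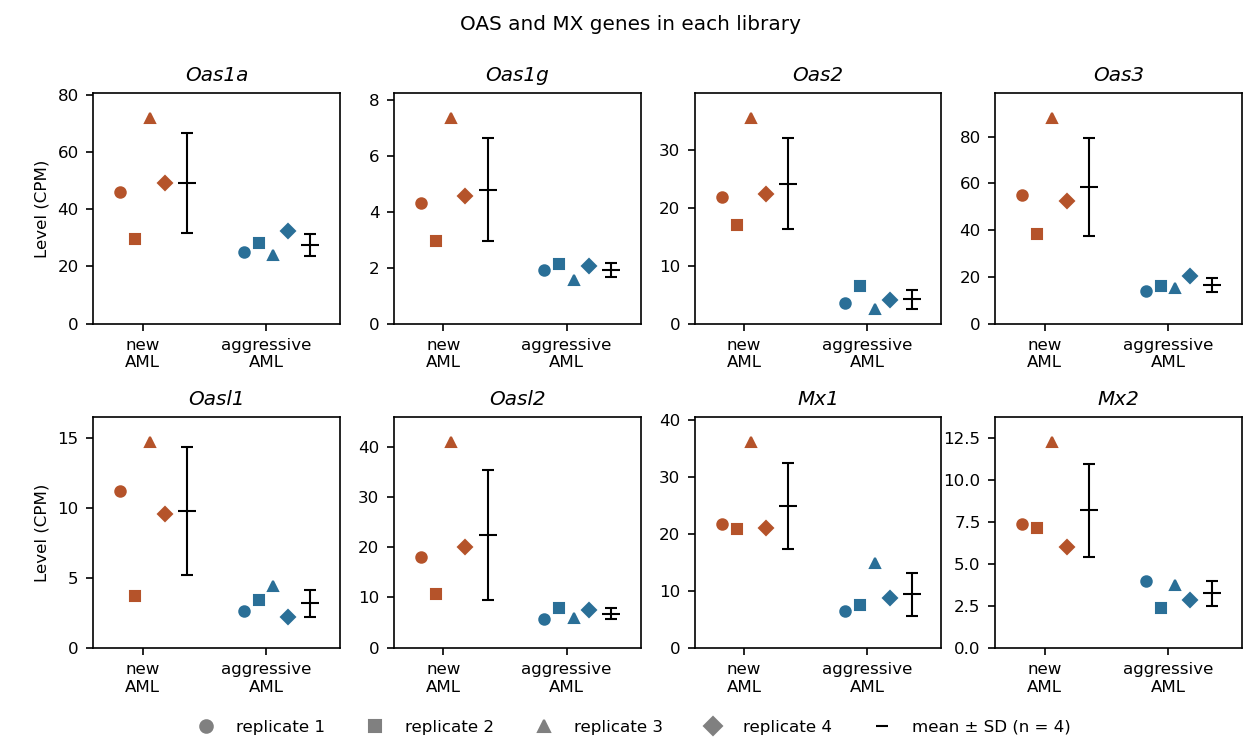
Levels of the 8 members in CPM on linear axes that start at 0, with 1 symbol per replicate in new AML (brown) and aggressive AML (blue) and the mean ± SD (n = 4) in black. New AML replicate 3 is the highest library for every gene, and only Oas1a and Oasl1 have a new AML library below the highest aggressive AML library.

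The OAS1 genes lie side by side on chromosome 5 (GRCm38, GENCODE M21). Oas1a, at chr5:120896256-120907521 on the minus strand, and Oas1g, at chr5:120876142-120887613 on the minus strand, code for close relatives of the single OAS1 enzyme of humans. Their promoters are shown because both genes hold the same interferon-type motif in the same place. The bases are the 160 before the RefSeq start (GRCm38.p6) in the direction of the gene, chr5:120907526-120907685 and chr5:120887614-120887773 on the minus strand. Capitals mark matches on either strand to the IRF pair, the letters GAAA repeated after any 2 bases, which forms the core of an ISRE, or to the shorter IRF motif AANNGAAA, which is contained in every pair.
Oas1a: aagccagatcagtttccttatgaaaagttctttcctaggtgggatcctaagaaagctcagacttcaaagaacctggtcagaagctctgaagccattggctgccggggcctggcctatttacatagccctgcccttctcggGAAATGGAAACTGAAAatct
Oas1g: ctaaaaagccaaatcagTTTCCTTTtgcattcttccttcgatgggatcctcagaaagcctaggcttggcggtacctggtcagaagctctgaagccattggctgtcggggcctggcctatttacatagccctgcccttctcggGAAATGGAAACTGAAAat
Each of these promoters held 2 overlapping matches to the pair, from -20 to -5 in Oas1a and from -18 to -3 in Oas1g. The promoters also shared a run of 73 identical bases that starts at -58 and -56. The pair occurred in 3.44% and the shorter motif in 23.9% of 32851 mouse promoter windows, each reaching from 250 bases before to 50 bases after the start. Oas1a also had 1 match, at -98 to -90, to TTCNNNGAA, the GAS motif of STAT dimers, which occurred in 8.3% of the windows.

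Oas1a stood at 46.0, 29.5, 71.9 and 49.4 CPM in new AML replicates 1 to 4 and at 25.1, 28.2, 23.8 and 32.4 CPM in aggressive AML replicates 1 to 4. The groups overlapped, because new AML replicate 2 lay below aggressive AML replicate 4. Its mean was 49.2 ± 17.5 CPM in new AML and 27.4 ± 3.83 CPM in aggressive AML (SD, n = 4). The log2 fold change was -0.84 (SE 0.20, edgeR adjusted p = 0.00863). This was the one member whose call was lost in any alternative, at a log2 fold change of -0.52 and an adjusted p of 0.0528 in limma with array weights.

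Oas1g had far fewer counts than Oas1a. The counts were 42, 25, 66 and 41 in new AML replicates 1 to 4 and 16, 18, 12 and 18 in aggressive AML replicates 1 to 4, or 4.80 ± 1.84 against 1.91 ± 0.251 CPM (SD, n = 4). The groups did not overlap, and the log2 fold change was -1.32 (SE 0.31, edgeR adjusted p = 0.00767). Of the 50-base stretches in the transcripts of Oas1a, 57.6% also occurred in Oas1g or Oas1b, and 45.7% of those of Oas1g occurred in Oas1a or Oas1b. How the counting treated such reads was not stated, so the split of reads between these genes is uncertain. With the counts of Oas1a and Oas1g summed, the log2 fold change was -0.88 (edgeR adjusted p = 0.00645).

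Oas2 and Oas3 code for the larger OAS enzymes, built from repeated OAS units. Oas3 is at chr5:120753098-120777661 and Oas2 at chr5:120730333-120749853, both on the minus strand, and an antisense gene, Gm43068, overlaps Oas2, whose reads cannot be separated from it if strand was not used. The promoter of Oas3, chr5:120777660-120777819 on the minus strand, is shown because it also held the pair, but farther from the start.
Oas3: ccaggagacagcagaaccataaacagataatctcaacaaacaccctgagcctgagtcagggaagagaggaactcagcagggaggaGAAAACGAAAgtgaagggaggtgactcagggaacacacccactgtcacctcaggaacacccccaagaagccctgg
The single pair lay at -75 to -66, and a further short motif lay past the start at 5 to 12. RefSeq promoter windows of Oas2, Mx1 and Mx2 were not analysed here.

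Oas2 was measured at 21.9, 17.0, 35.5 and 22.3 CPM in new AML and at 3.49, 6.48, 2.59 and 4.10 CPM in aggressive AML. Its lowest new AML library was 2.62 times its highest aggressive AML library, the widest gap among the members. The mean fell from 24.2 ± 7.91 to 4.16 ± 1.66 CPM (SD, n = 4), or 5.75-fold (log2 fold change -2.52, SE 0.26, edgeR adjusted p = 1.39e-05). Ordered from the lowest log2 fold change, Oas2 was number 66 of the 12494 tested genes.

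Oas3 reached 788 counts in new AML replicate 3, the highest count of any member. Its levels were 55.1, 38.4, 87.9 and 52.5 CPM in new AML and 13.7, 16.1, 15.2 and 20.5 CPM in aggressive AML, again without overlap. The fall was 3.56-fold (log2 fold change -1.83, SE 0.21, edgeR adjusted p = 2.98e-05).

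Oasl1 and Oasl2 are the OAS-like genes, which carry a tail of ubiquitin-like domains. Oasl1 has lost the synthetase activity and is known for holding back translation of Irf7, whereas Oasl2 still makes 2-5A. They lie next to each other on the plus strand, Oasl2 at chr5:114896936-114912234 and Oasl1 at chr5:114923240-114937915, and the latter is overlapped by an antisense gene, Gm13822. Their promoters, chr5:114923080-114923239 and chr5:114896774-114896933 on the plus strand, are shown because neither window held the pair.
Oasl1: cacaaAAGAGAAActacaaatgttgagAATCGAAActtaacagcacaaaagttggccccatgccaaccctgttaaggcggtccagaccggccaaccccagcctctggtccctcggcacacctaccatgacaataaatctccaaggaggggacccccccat
Oasl2: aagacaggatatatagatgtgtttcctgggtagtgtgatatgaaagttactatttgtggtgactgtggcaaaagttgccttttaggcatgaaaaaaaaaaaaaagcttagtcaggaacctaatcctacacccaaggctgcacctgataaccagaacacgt
Oasl1 had 3 matches to the shorter motif in its window, of which those at -155 and -133 are within the printed bases, and Oasl2 had no match to any of the motifs. Thus 3 of the 5 member promoters at hand had the pair and 4 had the shorter motif, while the RNA of all 5 genes was lower in aggressive AML.

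**Figure D2:**
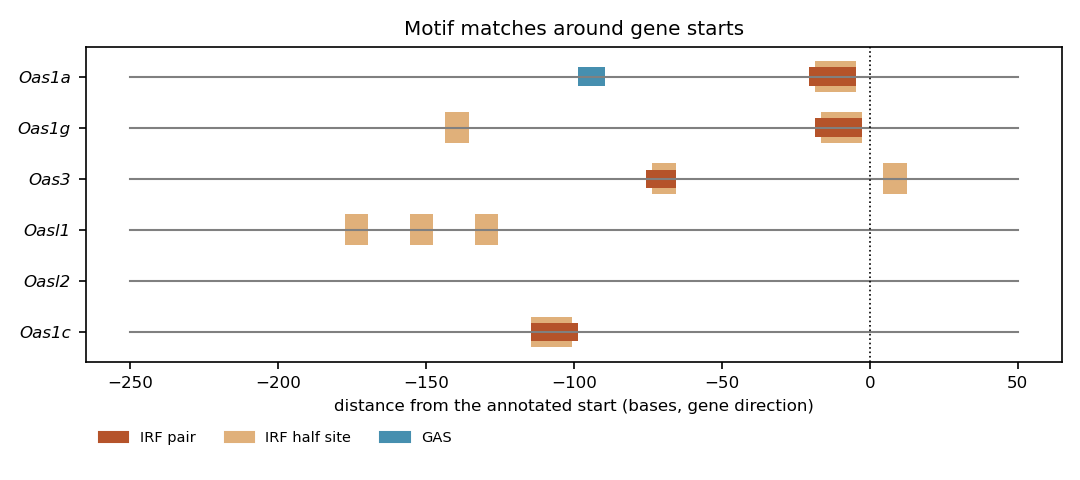
Positions of motif matches in windows from 250 bases before to 50 bases after the annotated start (dotted line), for 5 members and for Oas1c, with the IRF pair in dark brown, the shorter IRF motif in light brown and the GAS motif in blue. The pair sits next to the start in Oas1a and Oas1g, and farther upstream in Oas3 and Oas1c.

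Oasl1 stood at 11.2, 3.69, 14.7 and 9.58 CPM in new AML and at 2.65, 3.42, 4.41 and 2.16 CPM in aggressive AML. New AML replicate 2 was far below the other new AML libraries and lay under aggressive AML replicate 3, so the groups overlapped. The log2 fold change was -1.64 (SE 0.35, edgeR adjusted p = 0.0043), and it was -1.91 without new AML replicate 2.

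Oasl2 varied widely among new AML libraries, at 18.2, 10.7, 41.0 and 20.1 CPM, and was even among aggressive AML libraries, at 5.66, 7.89, 5.96 and 7.51 CPM. The groups did not overlap. New AML replicate 3 was 2.26 times the median of the other new AML libraries. The fall was 3.32-fold (log2 fold change -1.73, SE 0.31, edgeR adjusted p = 0.00143) and 2.41-fold without that library.

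Mx1, at chr16:97447035-97462907 on the minus strand, and Mx2, at chr16:97535308-97560900 on the plus strand, are neighbours that code for the nuclear and the cytoplasmic MX protein of mice. Mx1 was measured at 21.7, 20.8, 36.1 and 20.95 CPM in new AML and at 6.38, 7.54, 14.9 and 8.76 CPM in aggressive AML. In new AML, 3 libraries were nearly equal and replicate 3 stood above them, and in aggressive AML replicate 3 was again the highest. The groups did not overlap, and the log2 fold change was -1.41 (SE 0.24, edgeR adjusted p = 0.000963).

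Mx2 had 7.39, 7.13, 12.3 and 6.02 CPM in new AML and 3.98, 2.36, 3.76 and 2.84 CPM in aggressive AML. Its groups did not overlap either, with a log2 fold change of -1.34 (SE 0.27, edgeR adjusted p = 0.00279). The log2 ratio of Mx1 to Mx2 within each library averaged 1.497 ± 0.10 before passage and 1.25 ± 0.49 after it (SD, n = 4), and this difference did not pass an exact two-sided permutation test (p = 0.457). Only 4.37% of the 50-base stretches of Mx1 and 4.38% of those of Mx2 were shared with other genes.

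**Figure D3:**
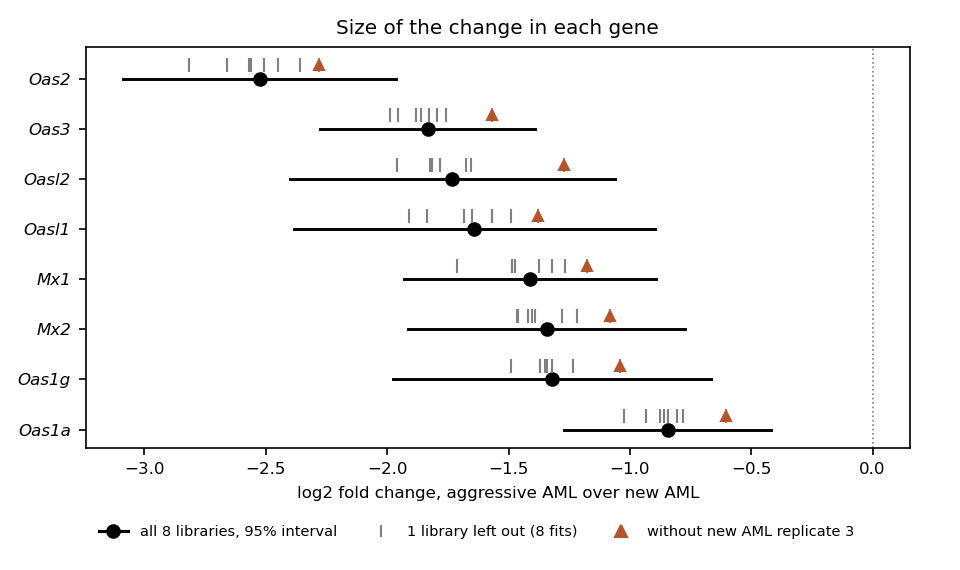
Log2 fold change of each member, aggressive AML over new AML (black points with 95% intervals from all 8 libraries), with the 8 fits that leave out 1 library as grey ticks and the fit without new AML replicate 3 as brown triangles. Leaving out that library gave the smallest fall of these 8 fits for every member, and the smallest of all was -0.60 for Oas1a.

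Levels were divided by exon length, the union of all annotated exons of a gene. In these units Oas1a was the highest of all members in both groups, at 26.1 ± 9.27 CPM per kb in new AML and 14.5 ± 2.03 CPM per kb in aggressive AML (SD, n = 4). Its range did not overlap that of the next member. In new AML the order went on with Oas3 at 8.27, Mx1 at 6.58, Oas2 at 5.43, Oasl1 at 3.76, Oasl2 at 3.53, Mx2 at 2.27 and Oas1g at 2.05 CPM per kb, and each of these overlapped its neighbour in the order. In aggressive AML, Mx1 at 2.48 and Oas3 at 2.32 CPM per kb came next and overlapped each other. The range of Oas3 did not overlap that of Oasl1, which followed at 1.21 CPM per kb. Oasl2 at 1.06, Oas2 at 0.936, Mx2 at 0.895 and Oas1g at 0.817 CPM per kb closed the order, each overlapping the next. Oas2 went from 4th place per length in new AML to 6th in aggressive AML. Because the split of reads between Oas1a and Oas1g is uncertain, so are the places of these genes in the order.

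Sizes of the fall were compared through ratios of members, again as differences of log2(CPM + 1). The added 1 shrinks ratios most at low levels, so their shifts need not equal differences of the edgeR fold changes. The log2 ratio of Oas1a to Oas2 within a library averaged 0.98 ± 0.15 in new AML against 2.50 ± 0.37 in aggressive AML (SD, n = 4), and that of Oas1a to Oas3 went from -0.25 ± 0.12 to 0.71 ± 0.10. Among the 28 pairs of members, 8 had ratios that did not overlap between the groups, and each of these reached p = 0.0286 in a two-sided exact permutation test, the smallest value that the 70 possible choices of 4 among 8 libraries can give. Their adjusted p over the 28 pairs was 0.1, so no pair passed the correction. Oas2 was in 4 of the 8 pairs, Oas1a, Oas1g and Oasl2 in 3 each, Oas3 in 2 and Oasl1 in 1. In the pairs with Oas2, its level had fallen more than that of Oas1a, Oas1g, Oasl1 and Oasl2. No pair with Mx1 or Mx2 was among them.

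The SD of the log2(CPM + 1) values lay between 0.37 and 0.76 for the members in new AML. In aggressive AML it lay between 0.13 and 0.48, a difference that was not tested. The added 1 narrows the spread most at low levels, and levels were lower in aggressive AML. The SD was larger in new AML for 6 members and smaller for Oas2 (0.42 against 0.44) and Mx1 (0.37 against 0.48). The members summed to 186, 130, 307 and 185 CPM in new AML replicates 1 to 4 and to 62.9, 74.1, 72.2 and 80.3 CPM in aggressive AML replicates 1 to 4. New AML replicate 3 was the highest library of its group in 8 of 8 members, against 28.2% of all tested genes, and replicate 2 was the lowest in 7 of 8. Aggressive AML had no such common order. Without new AML replicate 3, all 8 members were still called lower, against 1276 of the 12494 tested genes. In 6 members the groups still did not overlap, and the share of all tested genes without overlap was not computed for this setting. The log2 fold changes in this fit lay between -2.28 for Oas2 and -0.60 for Oas1a.

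Genes whose levels followed those of the members over the libraries were ranked by the root mean square difference between their log2(CPM + 1) values and the mean of the members, each centred on its own mean over the 8 libraries. The nearest were Irgm1, an interferon-induced GTPase, at 0.115, Ifitm1, a membrane protein that blocks virus entry, at 0.156, Irf7, the factor that amplifies the type I interferon response, at 0.163, Gm17757 at 0.174 and Lgals3bp, a secreted glycoprotein, at 0.208 log2 units. Of these genes, Ifitm1 and Gm17757 were low in aggressive AML, at 0.356 ± 0.164 and 0.993 ± 0.0686 CPM (SD, n = 4). The level of Ifitm1 was near that of 3 counts, 0.309 to 0.384 CPM. The added 1 shrinks differences most at such low levels. The log2 fold change of Ifitm1 was -1.36 in limma on log2(CPM + 1) but -2.81 in edgeR, so its nearness depends on the added 1. The members themselves ranged from 0.197 for Oasl2 to 0.531 for Oas2, and the median of all tested genes was 0.763. Over the 4 new AML libraries alone, where no difference between the groups enters, the nearest genes were Lgals3bp at 0.0359, Gm7710 at 0.0497, Aspa at 0.0614, Irgm1 at 0.0682 and Irf7 at 0.0813 log2 units, against a median of 0.447. Lgals3bp, Irgm1 and Irf7 were thus near in both rankings. Gm7710 and Aspa, at means of 1.99 and 0.493 CPM in new AML, did not follow the members between the groups, since Gm7710 had a log2 fold change of -0.02 and Aspa was higher in aggressive AML (log2 fold change 2.05, edgeR adjusted p = 0.0122). These ranks describe likeness over few libraries that share their depth and handling.

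**Figure D4:**
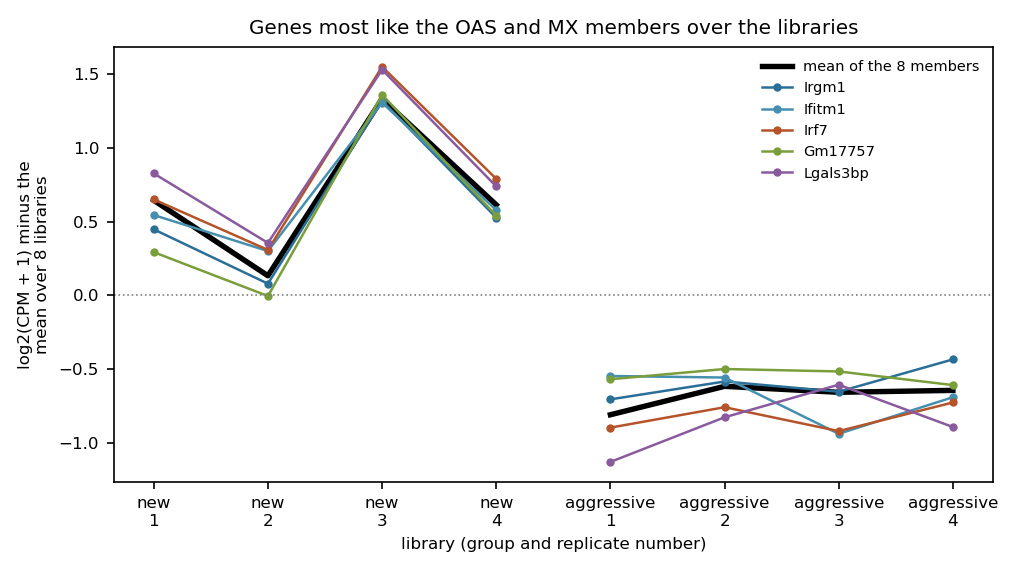
Log2(CPM + 1) minus the mean over the 8 libraries, for the mean of the 8 members (thick black line) and the 5 genes nearest to it, in each library. All 6 lines peak in new AML replicate 3, have their lowest new AML value in replicate 2 and lie below 0 in the 4 aggressive AML libraries.

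Other OAS genes were measured for Oas1b and Oas1c, and Oas1d, Oas1e, Oas1f and Oas1h were not analysed here. Oas1b, which carries a premature stop in laboratory strains and gave resistance to flaviviruses in wild mice, was at 4.31 ± 0.955 CPM in new AML and 2.26 ± 0.711 CPM in aggressive AML (SD, n = 4). Its log2 fold change was -0.92 (SE 0.29, edgeR adjusted p = 0.0397), a call that was lost in 6 of the 8 fits without 1 library, all except those without new AML replicate 1 or aggressive AML replicate 4. The highest adjusted p of these was 0.105, without aggressive AML replicate 2. Oas1c, which starts next to Oas1b and reads the other way, was at 3.98 ± 1.03 and 4.01 ± 0.712 CPM. Its log2 fold change of 0.01 had a 95% interval from -0.54 to 0.56 (edgeR adjusted p = 0.983). That interval lies above the point estimates of all 8 members but overlaps the 95% interval of Oas1a, from -1.27 to -0.42. The difference between Oas1c and the members was not tested. The promoter of Oas1c, chr5:120812515-120812674 on the minus strand, is shown because it too held 2 overlapping matches to the pair, on the other strand at -114 to -99.
Oas1c: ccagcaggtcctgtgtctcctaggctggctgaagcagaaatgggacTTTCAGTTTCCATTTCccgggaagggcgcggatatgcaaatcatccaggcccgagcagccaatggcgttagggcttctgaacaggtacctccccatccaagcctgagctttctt
The starts of Oas1c and Oas1b lie so close that the same 2 matches sit at -22 to -7 before the GENCODE start of Oas1b, in the direction of that gene.

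Of 4 other genes listed for the 2-5A pathway, edgeR called 0, against 18.4% of all tested genes in either direction. Only Pde12 had an unadjusted p under 0.05. Pde12, Akap7 and Enpp1, which code for enzymes that degrade 2-5A, had log2 fold changes of 0.27, 0.08 and 0.04, and Abce1, a ribosome recycling factor, had 0.02. Pde12 stood at 45.6 ± 4.16 CPM in new AML and 55.0 ± 1.72 CPM in aggressive AML (SD, n = 4, edgeR adjusted p = 0.0562). DESeq2 called it higher (adjusted p = 0.0370).

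Of the 8 genes listed as other sensors and effectors of double-stranded RNA, 7 were tested. All 7 were called lower, against 10.2% of all tested genes, with a median log2 fold change of -0.87. Zbp1, a sensor of Z-form RNA, had the largest fold, at 7.59, 7.61, 32.6 and 8.69 CPM in new AML and 2.53, 2.71, 3.11 and 3.30 CPM in aggressive AML (log2 fold change -2.27, SE 0.44, edgeR adjusted p = 0.00247). Without new AML replicate 3 its log2 fold change was -1.45. Ddx58, which codes for the RNA sensor RIG-I, and Ifih1, which codes for MDA5, had log2 fold changes of -1.07 and -0.98, and Eif2ak2, the kinase PKR, had -0.51.

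Of 10 genes of the interferon signal, 8 were called lower and none higher, against 10.2% and 8.15% of all tested genes. Their median log2 fold change was -0.53. With a library left out, 6 to 8 were called, and Tyk2, a kinase bound to the receptor (log2 fold change -0.27, edgeR adjusted p = 0.0425), lost its call in all such fits except those without new AML replicate 1 or aggressive AML replicate 4. Usp18, a brake on the receptor that interferon itself induces, was at 12.8, 7.97, 22.9 and 14.8 CPM in new AML and 2.77, 3.18, 1.30 and 4.32 CPM in aggressive AML (log2 fold change -2.32, SE 0.33, edgeR adjusted p = 0.000208). Irf7 stood at 22.0, 17.1, 41.8 and 24.3 CPM in new AML and 6.87, 7.66, 6.74 and 7.85 CPM in aggressive AML (log2 fold change -1.85, SE 0.23, edgeR adjusted p = 7.08e-05). Both genes were highest in new AML replicate 3 and lowest in replicate 2 within their group, like most members.

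Irf9 and Stat2, whose products bind the ISRE together, also fell. Irf9 went from 103 ± 9.74 to 49.95 ± 5.19 CPM (SD, n = 4, log2 fold change -1.04, edgeR adjusted p = 4.53e-06) and Stat2 had a log2 fold change of -0.52 (edgeR adjusted p = 0.00421). The receptor gene Ifnar2 had -0.43 (edgeR adjusted p = 0.00155). Irf1 had -0.53 (edgeR adjusted p = 0.0229), and its call was lost without new AML replicate 3 (-0.34, adjusted p = 0.0565), aggressive AML replicate 2 or aggressive AML replicate 3. Jak1 and Socs1 were not called, with log2 fold changes of -0.17 and -0.55. New AML replicate 3 was the highest new AML library for 6 of these 10 genes and for 6 of the 7 sensors.

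The MX proteins belong to the dynamin superfamily. Of 7 listed relatives, 5 were tested, their median log2 fold change was 0.08, and 1 was called, against 18.4% of all tested genes. This was the mitochondrial fusion gene Opa1, which was higher in aggressive AML (log2 fold change 0.26, SE 0.07, edgeR adjusted p = 0.0257). The call of Opa1 was lost without new AML replicate 1, 2 or 4 or aggressive AML replicate 2, at adjusted p-values up to 0.0853.

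**Figure D5:**
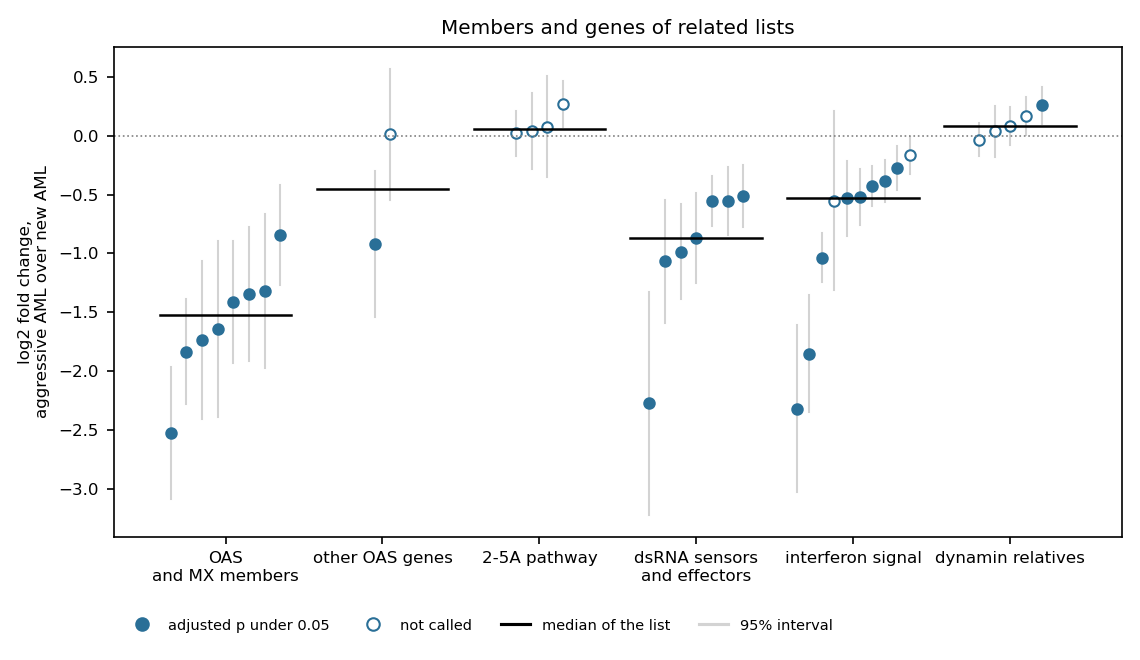
Log2 fold changes, aggressive AML over new AML, of the members and of 5 lists of related genes, with 95% intervals in grey, filled points for an adjusted p under 0.05 and a black line at the median of each list. The members have the lowest median, at -1.53, and all tested sensors of double-stranded RNA lie below 0.

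Genes around the members were compared with them by position. Within 250 kb of the 3 clusters, 23 other genes were tested, with a median log2 fold change of -0.07. Of these, 6 were called lower and 2 higher, against 10.2% and 8.15% of all tested genes. Next to Oasl1 and Oasl2, 5 of 12 neighbours were called lower, with log2 fold changes of -0.46 for Unc119b to -0.28 for Git2, and Rpl37rt was higher at 0.30. Around the chromosome 5 OAS genes, 1 of 9 was lower, Oas1b itself, and Slc8b1 was higher at 0.28. Neither neighbour of Mx1 and Mx2, Ripk4 or Prdm15, was called. The number of neighbours called fell to 3 without new AML replicate 2, to 4 without new AML replicate 1 or 4 and to 5 without aggressive AML replicate 2.

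Some genes listed as markers of other cell types were also called lower in aggressive AML, as were 10.2% of all tested genes. Whether the leukemia cells themselves expressed these markers was not tested. Neutrophil genes were called lower in 8 of 10 cases and summed to 326 to 494 CPM in new AML and 166 to 219 CPM in aggressive AML, with new AML replicate 1 the lowest and replicate 4 the highest of their group. Macrophage genes summed to 208 to 250 CPM in new AML, where replicate 3 was the lowest, and 155 to 207 CPM in aggressive AML, with 1 of 4 tested genes, Adgre1, called lower. Among plasmacytoid dendritic cell genes, a cell type known for its output of type I interferon, Siglech went from 5.58 ± 2.17 to 0.448 ± 0.408 CPM (SD, n = 4) and was lowest of the new AML libraries in replicate 3. The whole list, with 3 of 6 genes tested and 2 lower, summed to 590 to 628 and 577 to 654 CPM. Most of that sum was Tcf4, at 510 ± 28.1 and 542 ± 33.6 CPM (SD, n = 4), which was not called. The other lower gene was Bst2 (log2 fold change -0.48, edgeR adjusted p = 0.0451), which was highest of the new AML libraries in replicate 3. Its groups overlapped, and its call was lost without that library (log2 fold change -0.25, edgeR adjusted p = 0.0998). Erythroid genes were lower in 2 of 5 tested cases, Hba-a1 and Slc4a1. Each call was lost in some alternative, at adjusted p-values up to 0.136 for Hba-a1 (DESeq2) and 0.0961 for Slc4a1 (edgeR). The list summed to 18.3 to 59.0 CPM in new AML, with replicate 3 the highest and replicate 2 the lowest. In aggressive AML it summed to 6.95 to 30.5 CPM. For B cells, Cd22 was lower, the other tested gene was not called, and the sums were 39.1 to 42.2 and 29.8 to 33.1 CPM. For T cells, 1 of 8 genes was tested and not called, with sums of 2.85 to 3.90 and 3.53 to 6.02 CPM, and Cd3d, Cd3e and Cd3g were not analysed here. For NK cells 2 of 6 genes were tested, Nkg7 was higher and the sums were 15.0 to 27.8 and 25.8 to 33.0 CPM. The call of Nkg7 was lost without aggressive AML replicate 1 (edgeR adjusted p = 0.0782). The part of these cells in the levels of the members was not tested.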

How the data were processed

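Messenger RNA of GFP-positive leukemia cells was sequenced from both ends. The authors aligned the reads to mm10 with HISAT2, obtained counts with Rsubread and set a limit of 1 CPM. The deposited values are whole numbers with unequal library totals, although the table's name says CPM, and were used as raw read counts. The annotation and strand setting of the counting were not given in the sources used here. Groups came from the sample titles. A gene was tested if 4 or more libraries reached 1 CPM, with the edgeR quasi-likelihood test (version 4.0.16, R 4.3.3), which left out 329 rows. Library sizes were scaled by TMM, with factors of 0.986 to 1.01, group was the only term, and two-sided p-values were adjusted over all tested genes (Benjamini-Hochberg, threshold 0.05). The common biological coefficient of variation was 0.118. The study used limma, and limma (version 3.58.1) on log2(CPM + 1) and DESeq2 (version 1.42.0) were alternatives, with other scalings and filters, a pseudocount of 0.5, array weights, a replicate block and each library left out in turn. CPM values carry the TMM factors. Standard errors and 95% intervals were derived from the F statistic, and the code was tested on simulated data.

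Replicates differed beyond sampling noise in every pair. Same-numbered libraries of the groups did not deviate together (correlations 0.10, -0.04, -0.07 and 0.20), so numbers were not taken to pair them. Gene models were those of GENCODE M21 (GRCm38, the same build as mm10), which matched 92.5% of the gene names. Promoter sequences and start sites were those of RefSeq for GRCm38.p6, with an entry for 5 of the 8 members. The members, lists and tests were chosen with earlier results of these data known. From each list, up to 3 called genes with the largest change were named, with Stat2, Irf9 and Irf7 always, besides the 5 genes most like the members. Some genes that the lists held are not reported here and are in no count of a list. Other genes were named after their values were seen. The table has 1 repeated gene name and 19 names turned into dates, which were left as they were.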

Additional observations from a re-analysis of the deposited data

Results flagged for a closer look

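Among 50 groups of 4 libraries, from 25 genes, 3 had a library far from the other 3. Chance gives about 1 in 20 such groups, so the number flagged is near what chance gives. Mx1 was at 36.1 CPM in new AML replicate 3 and at 20.8 to 21.7 CPM in the other new AML libraries. Zbp1 was at 32.6 CPM in the same library and at 7.59 to 8.69 CPM in the others. Aspa was at 2.24 CPM in aggressive AML replicate 2 and at 2.05 to 2.07 CPM in the other aggressive AML libraries.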

How the results depend on the processing

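Over 19 alternatives, 143 fits of single members were made, of which 142 kept the direction and the call, 1 lost the call (Oas1a with array weights, given above) and 0 changed direction. Their log2 fold changes ran from -2.82 to -0.52. Oas1g and Oasl1 left the test under a minimum of 5 CPM, so that 6 members were called there, 7 were called with array weights, and 8 under each other alternative that tested all 8. The replicate block called 8 members and 2367 genes in all, against 2296 without it, and lost Oas1b (adjusted p = 0.0554), so that 0 other OAS genes were called. This count was also 0 at a minimum of 5 CPM and 0 to 1 with a library left out. The 2-5A pathway had 1 called gene, Pde12, under upper-quartile scaling, the 5 CPM minimum, DESeq2 and array weights. With a library left out, called neighbours numbered 3 to 8, called genes of the interferon signal 6 to 8, called dynamin relatives 0 to 1, and calls over all genes 1534 to 2381. Array weights gave 3248.

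Fold changes near 0 changed sign with a library left out. Oas1c ran from -0.132 to 0.172 (with -0.0226, -0.0142, -0.0469 and -0.0329 between), Abce1 from -0.0238 to 0.107 (with -0.0110), Akap7 from -0.0120 to 0.217, Enpp1 from -0.0454 to 0.184 (with -0.0315) and Mfn1 from -0.0281 to 0.0830. Gm7710 ran from -0.242 to 0.452 and was at 0.0251 and 0.0367 in limma with either pseudocount, 0.177 with array weights and 0.0198 with the replicate block. Oas1g, the lowest member, rests on few counts per library. No within-batch value could be given because the labels name no batch.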
